A study of Oryctolagus cuniculus with 16 samples.

Results

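The predicted miRNAs that were well detected in the femoral head of a rabbit model of Perthes disease were examined in small RNA-seq libraries of Perthes rabbits 1, 2 and 3. Perthes disease is an osteonecrosis of the growing femoral head. The model was made in immature wild-type rabbits by surgery that cuts off blood from the femoral head, through a ligature around the femoral neck and division of the ligamentum teres, and all 3 rabbits carried this lesion. Control libraries and those of the remaining Perthes rabbits were not analysed here, so the values describe the diseased tissue alone and no change from healthy tissue is given. A rabbit was represented by 1 library in each case, and the SDs below are over the 3 rabbits.

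The authors' table lists 866 mature miRNAs, of which 401 carry the names of known rabbit miRNAs and 465 were predicted by the authors from the reads. The members were selected on their read counts, as the predicted miRNAs with 10 or more reads in each of the 3 libraries. This threshold was met by 112 of the 465 predicted miRNAs (24.1%), beside 269 of the 401 known ones (67.1%) and 381 of all 866 (44.0%). Because the counts of all 3 libraries chose the members, their abundance and variation are described without a test. Each member is written below as ocu-miR, the number the authors gave it and its arm, without the tag that marks it as predicted in the table. These numbers were not matched to miRNA families, so ocu-miR433-3p, for example, was not taken to be the known miR-433.

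Most miRNAs are cut from a hairpin precursor by Drosha in the nucleus and by Dicer in the cytoplasm. A strand of the resulting duplex, from the 5' arm (5p) or the 3' arm (3p) of the hairpin, is loaded into an Argonaute protein and guides it to messenger RNAs with a matching site, while the other strand is mostly degraded. miRDeep, the program the authors used, predicts a miRNA where small RNA reads stack on a genomic stretch that can fold into such a hairpin. In bone and marrow, some known miRNAs mark cartilage (miR-140), red cell precursors (miR-451) and myeloid cells (miR-223).

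The libraries held 2535769, 2287350 and 2469922 reads on listed miRNAs in rabbits 1, 2 and 3. Levels are given as CPM, which are the reads of a miRNA over those on all listed miRNAs, per 1000000, with library sizes scaled by the TMM method. The labelled tissue was checked against known marker miRNAs. All 4 cartilage markers looked up were listed, with summed levels of 12174 to 15813 CPM across the rabbits. Most of this was miR-140-5p (10834 to 13696 CPM), while miR-455-3p was at 13.6 to 34.8 CPM. The 4 red cell markers summed to 30738 to 41014 CPM, nearly all of it miR-451, while miR-144-3p had 0, 1 and 0 reads, the 3 myeloid markers to 657 to 1238 CPM, and the 3 of 4 skeletal muscle markers that were listed to 3316 to 5392 CPM. Most of the skeletal muscle sum was miR-206, at 2716 to 4481 CPM. Liver miR-122-5p was at 13.6 to 28.7 CPM and neuronal miR-9-5p at 2.64 to 5.51 CPM. Endothelial miR-126, neuronal miR-124-3p and the muscle miRNA miR-133b were also looked up. Their names are not among the listed miRNAs, so nothing can be said of their levels. In bulk tissue, fewer cells of a type and less RNA per cell cannot be told apart.

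Reads on the 112 members were a small share of the miRNA pool and were concentrated on a few of them. They amounted to 64853 reads in rabbit 1, 83410 in rabbit 2 and 39587 in rabbit 3. These were 2.56% of the listed miRNA reads in rabbit 1 (95% exact binomial interval 2.54 to 2.58), 3.65% in rabbit 2 (3.62 to 3.67) and 1.60% in rabbit 3 (1.59 to 1.62), with a mean of 2.60% ± 1.02 (SD, n = 3). The intervals cover counting error only, and they treat each read as an independent molecule, which reads copied by PCR are not. Of all reads on predicted miRNAs, the members held between 95.0% and 97.9% in a library, a share that their selection by read count largely sets.

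Most of the difference in share between rabbits lay with ocu-miR1105-3p, the most abundant of 3 leading members. Together, ocu-miR1105-3p, ocu-miR2804-5p and ocu-miR1880-5p held 63.6% of the members' reads in rabbit 1, 77.3% in rabbit 2 and 45.6% in rabbit 3. The other 109 members together took 0.930%, 0.828% and 0.871% of the listed reads, which was nearly the same in every rabbit. Without ocu-miR1105-3p alone, the members' share was 1.65% in rabbit 1, 1.46% in rabbit 2 and 1.43% in rabbit 3. The SD over the rabbits was then 0.12, against 1.02 with it.

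**Figure D1:**
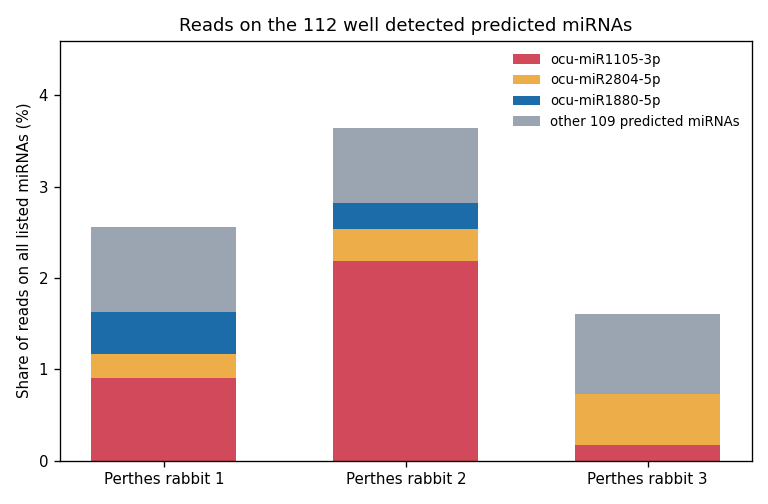
Share of each library's reads on listed miRNAs that fell on the 112 predicted miRNAs (vertical axis, %), for Perthes rabbits 1 to 3 (bars), split into the 3 most abundant members and the other 109. The grey part spans 0.828% to 0.930%, while the part of ocu-miR1105-3p is largest in rabbit 2, and ocu-miR1880-5p is too small to see in rabbit 3.

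The most abundant member was ocu-miR1105-3p, a 3' arm product by the authors' name for it, which was not checked against a sequence. It had 22903 reads in rabbit 1, 50118 in rabbit 2 and 4170 in rabbit 3, or 8654, 23543 and 1640.0 CPM (11279 ± 11185, SD, n = 3). Its level in rabbit 2 was 14.4 times that in rabbit 3, and without rabbit 2 its mean was 5147 CPM. Among all 866 listed miRNAs it ranked 37th in rabbit 1, 18th in rabbit 2 and 67th in rabbit 3, so that it stood among the abundant listed names in every rabbit.

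The next member by mean level, ocu-miR2804-5p, ran in another order. It had 6577, 7899 and 13847 reads in rabbits 1, 2 and 3, or 2485, 3711 and 5446 CPM (3880.45 ± 1488, SD, n = 3). Rabbit 3, which was lowest for ocu-miR1105-3p, was highest here. The range between rabbits was 2.19-fold.

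The widest range of any member was that of ocu-miR1880-5p. It had 11781 reads in rabbit 1 and 6454 in rabbit 2 but 51 in rabbit 3, or 4451, 3032 and 20.1 CPM (2501 ± 2263, SD, n = 3), a difference of 222-fold between rabbits 1 and 3. In rank among listed miRNAs it moved from 51st and 56th in rabbits 1 and 2 to 290th in rabbit 3, and its mean was 3742 CPM without rabbit 3 and 1526 CPM without rabbit 1. The summed cartilage markers were at 13977, 12174 and 15813 CPM in rabbits 1, 2 and 3 and the red cell markers at 30738, 41014 and 33831 CPM, and their part in this difference was not tested.

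From the fourth member on, levels fell below 1000 CPM and several were close to even between rabbits. The counts of ocu-miR2468-3p were 2440, 1576 and 1820 reads, at 793 ± 113 CPM (SD, n = 3). Those of ocu-miR2447-5p were 1479, 1502 and 1498 reads, at 618 ± 77.5 CPM. For ocu-miR3125-3p they were 1296, 1332 and 1479 reads, at 566 ± 69.4 CPM. In these 3 members the highest rabbit lay less than 1.3 times above the lowest, with coefficients of variation (CV, the SD as a percentage of the mean) of 14.2%, 12.5% and 12.3%.

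The other four of the 10 most abundant members varied more. The levels of ocu-miR2768-3p, with 2640, 1085 and 1354 reads, averaged 680 ± 275 CPM (SD, n = 3) and were highest in rabbit 1. Rabbit 1 was lowest for ocu-miR2782-5p, which had 598, 975 and 939 reads and 351 ± 117 CPM. Both ocu-miR4603-3p (1079, 587 and 527 reads, 297 ± 102 CPM) and ocu-miR246-3p (1142, 701 and 270 reads, 289 ± 166 CPM) were highest in rabbit 1 and lowest in rabbit 3. The 10 members together held 79.9% of the members' reads over the 3 libraries.

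**Figure D2:**
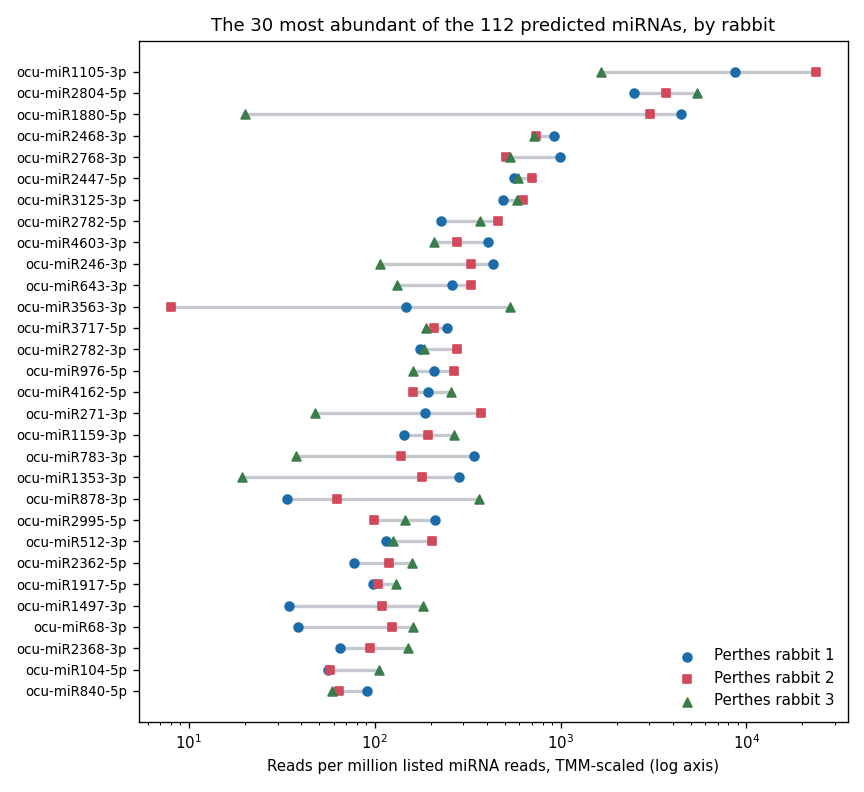
Level of the 30 most abundant predicted miRNAs in each Perthes rabbit (horizontal log axis, TMM-scaled CPM), ordered by their mean, with a grey line from the lowest to the highest rabbit. The longest lines are those of ocu-miR1880-5p (222-fold) and ocu-miR3563-3p (66.7-fold), while ocu-miR2468-3p, ocu-miR2447-5p and ocu-miR3125-3p span less than 1.3-fold.

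Most members were far less abundant. Their mean levels ranged from 5.60 to 11279 CPM with a median of 27.9, against a median of 172 CPM for the 269 known miRNAs that met the same threshold. Only 3 members exceeded 1000 CPM and 28 exceeded 100 CPM, beside 75 and 156 of the known miRNAs. In reads, 70 members averaged under 100 per library, 35 averaged 100 to under 1000 and 7 averaged 1000 or more. Among the 100 listed miRNAs with the highest mean level, 7 were members, while members made up 112 of all 866 listed. The first 381 by mean level, as many as met the threshold, held 105 of the 112. The selection by read count largely sets that last number.

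Over the 3 rabbits, the median variation was larger for the members than for the known miRNAs. The median CV was 39.4% over the 112 members (quartiles 26.4% and 57.7%) and 27.4% over the 269 known miRNAs. The gap depended on the rabbits included: the medians were 30.0% and 21.0% without rabbit 1, 42.2% and 18.5% without rabbit 2, and 31.7% and 28.6% without rabbit 3. Counting alone would give a CV of 12.2% at the median of the members, and 104 of the 112 lay above their own counting value, beside 257 of the 269 known miRNAs. For miRNAs averaging under 100 reads the medians were alike, at 39.2% for 70 members and 37.9% for 75 known miRNAs. From 100 to under 1000 reads they were 41.5% for 35 members and 35.5% for 94 known miRNAs, and from 1000 reads on 38.3% for 7 members and 15.8% for 100 known miRNAs. In that last class the levels were unlike, with a median of 793 CPM for the members and 3695 CPM for the known miRNAs. The CV medians are descriptions, because a member with few reads can only vary as far as the minimum of 10 reads in its lowest library allows.

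**Figure D3:**
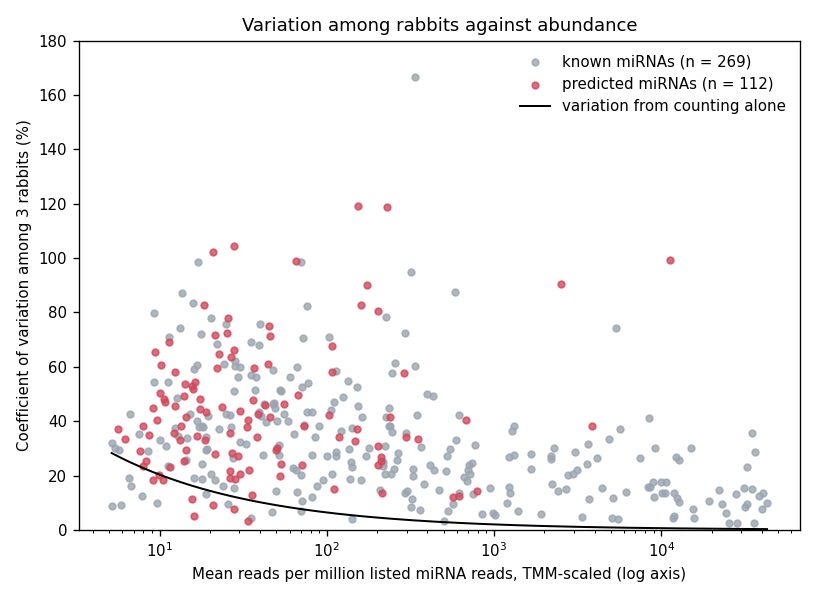
Coefficient of variation among the 3 Perthes rabbits (vertical axis, %) against the mean level (horizontal log axis, TMM-scaled CPM) for 112 predicted miRNAs (red) and 269 known miRNAs (grey) with 10 or more reads in each library, with the variation expected from counting alone (line). The medians are 39.4% and 27.4%, and above 1000 CPM 2 of the 3 predicted miRNAs lie at 90.5% and 99.2%.

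A difference of 4-fold or more between the highest and the lowest rabbit was found for 23 of the 112 members (20.5%), beside 21 of the 269 known miRNAs (7.81%) and 44 of all 381 that met the threshold (11.5%). Rabbit 3 was the lowest rabbit in 12 of these 23 members and the highest in 9. Taking a library away can only narrow such ranges. Of the 112 members, 16 kept one without rabbit 1, 13 without rabbit 2 and 4 without rabbit 3. Of the 269 known miRNAs, 9, 10 and 11 did so. The larger share among the members was thus not seen without rabbit 3. At the other end, 19 members (17.0%) and 96 known miRNAs (35.7%) differed by less than 1.5-fold.

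Several members were highest in rabbit 3 by a wide margin. The largest CV of any member, 119%, was that of ocu-miR878-3p, with 89 reads in rabbit 1, 134 in rabbit 2 and 927 in rabbit 3. Close to it was ocu-miR3563-3p (CV 119%), with 388, 17 and 1355 reads, where rabbit 2 was far below both others. The counts of ocu-miR2685-3p were 18, 22 and 115. Relative to the mean of the other rabbits, rabbit 3 was 7.55 times higher for ocu-miR878-3p, 6.89 times for ocu-miR3563-3p and 5.28 times for ocu-miR2685-3p. The next of this kind were ocu-miR2398-3p (55, 18 and 121 reads) and ocu-miR2101-5p (25, 10 and 51 reads), at 3.26 and 2.84 times.

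Of the 44 members highest in rabbit 2, 24 were lowest in rabbit 3, among them the 5 that stood highest above the others. For ocu-miR480-5p the counts were 50, 129 and 11 reads, and rabbit 2 lay 5.22 times above the mean of the others. The same order held for ocu-miR4036-5p with 122, 294 and 32 reads (4.71 times). It also held for ocu-miR1105-3p (4.57 times), ocu-miR824-3p (36, 76 and 16 reads, 3.59 times) and ocu-miR271-3p (493, 790 and 121 reads, 3.17 times). The myeloid markers were also highest in rabbit 2, at 1238 CPM against 657 and 666 in rabbits 1 and 3. So were the red cell markers, at 41014 CPM against 30738 and 33831. The summed cartilage and skeletal muscle markers were lowest in rabbit 2, at 12174 and 3316 CPM. Among the single markers of these sums, miR-455-5p (273, 338 and 490 CPM) and miR-133a (157, 233 and 262 CPM) were lowest in rabbit 1 instead. The other listed ones were lowest in rabbit 2. The part of any of these markers in the differences was not tested.

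In rabbit 1, the members that stood highest above the others did so by smaller factors. The leading one was ocu-miR783-3p with 908, 293 and 96 reads, 3.91 times the mean of the others. It was followed by ocu-miR3428-5p (101, 18 and 44 reads, 2.96 times), ocu-miR1880-5p (2.92 times), ocu-miR1353-3p (748, 380 and 49 reads, 2.86 times) and ocu-miR2840-5p (130, 35 and 46 reads, 2.84 times). Rabbit 3 was lowest for ocu-miR783-3p (a range of 9.09-fold), ocu-miR1880-5p (222-fold) and ocu-miR1353-3p (14.7-fold), and rabbit 2 for ocu-miR3428-5p and ocu-miR2840-5p.

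The remaining members with a range of 4-fold or more were high in different rabbits. Rabbit 3 was highest and rabbit 1 lowest for ocu-miR1497-3p (91, 232 and 460 reads), ocu-miR68-3p (102, 262 and 406) and ocu-miR4065-3p (25, 58 and 110). Rabbit 3 was the low one for ocu-miR3682-3p (146, 156 and 19 reads), ocu-miR2389-5p (120, 152 and 43) and ocu-miR2893-3p (65, 94 and 19), rabbit 1 for ocu-miR4207-3p (23, 150 and 146) and rabbit 2 for ocu-miR3879-5p (70, 14 and 90). By abundance, such ranges were found for 9 of the 70 members averaging under 100 reads (12.9%), 12 of the 35 averaging 100 to under 1000 (34.3%) and 2 of the 7 averaging 1000 or more. Of the known miRNAs in these classes, 13.3%, 9.57% and 2.00% had them.

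The 5 members with the lowest CV had mean levels between 15.7 and 33.6 CPM. The lowest CV, 3.21%, was that of ocu-miR201-3p, with 92, 71 and 83 reads and 33.6 ± 1.08 CPM (SD, n = 3). It was followed by ocu-miR2651-5p (41, 33 and 43 reads, CV 5.12%), ocu-miR4209-3p (67, 62 and 74 reads, 7.88%), ocu-miR1394-3p (53, 42 and 59 reads, 9.18%) and ocu-miR1120-5p (36, 36 and 42 reads, 11.5%). All 5 lay below the CV that counting alone would give at their depth, which was between 11.1% and 16.2%. They were chosen for their low CV, so this is a description of the chosen members.

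No single rabbit led the members as a whole. After scaling, 29 members were highest in rabbit 1, 44 in rabbit 2 and 39 in rabbit 3, and the median level of the members was 25.3, 28.2 and 26.9 CPM. With the library totals in place of TMM the numbers were 32, 36 and 44, so that which of rabbits 2 and 3 led depended on the scaling. Lowest levels were found in rabbit 1 for 46 members, in rabbit 2 for 25 and in rabbit 3 for 41. The 269 known miRNAs were highest in rabbits 1, 2 and 3 in 96, 98 and 75 cases and lowest in 92, 101 and 76.

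The order of the members by level was partly shared between rabbits. Across the 112 members, Spearman's rho of the levels was 0.777 between rabbits 1 and 2, 0.722 between rabbits 1 and 3 and 0.670 between rabbits 2 and 3, and Pearson's r of log2(CPM + 1) was 0.891, 0.763 and 0.740. Across the 269 known miRNAs rho was 0.937, 0.965 and 0.943 for the same pairs. These values are across miRNAs of the same libraries, which are not independent replicates, and the known miRNAs span a wider range of levels. Within 2-fold of each other lay 79 members in rabbits 1 and 2 (70.5%), 72 in rabbits 1 and 3 (64.3%) and 82 in rabbits 2 and 3 (73.2%). Of the known miRNAs, 75.5%, 83.3% and 81.8% did so.

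**Figure D4:**
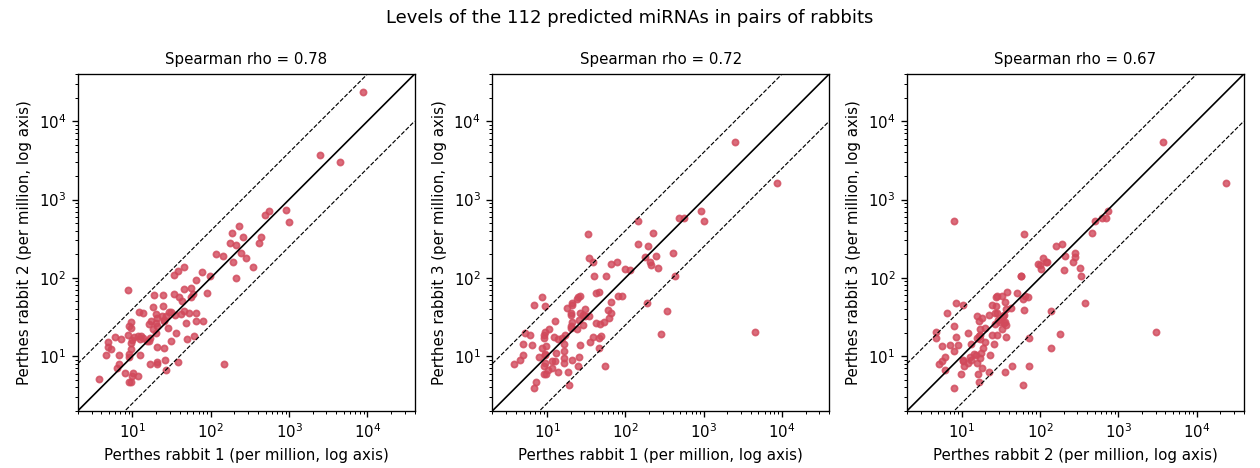
Levels of the 112 predicted miRNAs (TMM-scaled CPM, both axes log) in each pair of Perthes rabbits, with lines of equality (solid) and of a 4-fold difference (dashed). Spearman's rho is 0.78, 0.72 and 0.67, and points lie outside the dashed lines in each panel.

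By their names, the members were split evenly between the arms, with 56 from the 5' arm and 56 from the 3' arm. They came from 106 hairpins if names with the same number are taken as arms of the same hairpin. Both arms were listed for 24 of these 106 (22.6%), against 137 of the 203 hairpins (67.5%) of the well detected known miRNAs. Over all listed names, both arms were listed for 57 of 408 predicted hairpins (13.97%) and 154 of 247 known ones (62.35%). The share among the members was thus above that of all predicted hairpins. In 22 of the 24 pairs the same arm had more reads in all 3 rabbits, and the leading arm held a median of 92.6% of a pair's reads. Of the 137 known pairs, the same arm led in 128, with a median share of 98.1%. Only 1 arm met the threshold in 18 of the predicted pairs and 71 of the known ones. That selection favours a one-sided pair. The median shares of these pairs were 95.6% and 98.8%. Where both arms met it, they were 66.3% in 6 predicted and 95.8% in 66 known pairs. In 13 of the 24 predicted pairs the leading arm held at least 90%, beside 104 of the 137 known pairs, a larger share. The share of an arm does not depend on how libraries are scaled.

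Strongly one-sided pairs were found among the abundant members. Of the reads of ocu-miR3125, the 5p arm took 6.76% in rabbit 1, 3.06% in rabbit 2 and 2.57% in rabbit 3. The 5p arm of ocu-miR976 had 553, 567 and 406 reads, against 2, 0 and 1 reads on its 3p arm. The variable member ocu-miR271-3p had 493, 790 and 121 reads, with 6, 0 and 0 on its 5p arm.

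Both arms were members in 6 pairs, those of ocu-miR3125, ocu-miR2782, ocu-miR1159, ocu-miR2389, ocu-miR4295 and ocu-miR920. In ocu-miR2782 the 5p arm held 56.2% (95% exact binomial interval 53.2 to 59.2), 62.3% (59.8 to 64.7) and 66.8% (64.3 to 69.3) of the reads in rabbits 1, 2 and 3, so that it was the more abundant arm in every rabbit while the 3p arm kept over 30% of the reads. The 5p arm of ocu-miR1159 held 12.6%, 6.39% and 3.28%.

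The leading arm changed between rabbits in 2 pairs. In ocu-miR2389 the 5p arm had 120 of 196 reads in rabbit 1 (61.2%, interval 54.0 to 68.1) and 152 of 200 in rabbit 2 (76.0%, 69.5 to 81.7), but 43 of 127 in rabbit 3 (33.9%, 25.7 to 42.8). The interval of rabbit 3 overlapped neither of the others. In ocu-miR4013, whose 3p arm is a member, the 5p arm held 68.5% in rabbit 1 (57.8 to 78.0), 19.6% in rabbit 2 (9.36 to 33.9) and 40.4% in rabbit 3 (30.4 to 51.0). These intervals cover counting within a library and not the spread between rabbits.

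**Figure D5:**
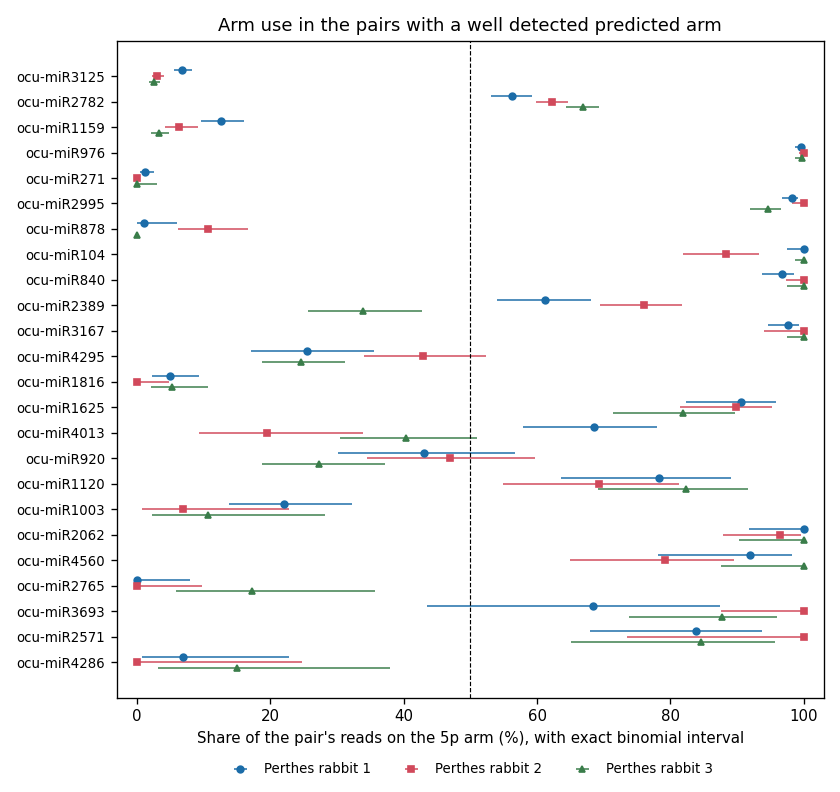
Share of a pair's reads on the 5p arm (horizontal axis, %) in each Perthes rabbit, for the 24 pairs in which both arms are listed and at least 1 is a member, ordered by their reads. Bars are 95% exact binomial intervals for counting error, and only ocu-miR2389 and ocu-miR4013 have rabbits on both sides of 50%.

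The members just inside the threshold had 10 or 11 reads in their lowest library. They were ocu-miR3274-5p (10, 11 and 20 reads), ocu-miR2179-5p (18, 17 and 10), ocu-miR1098-5p (24, 10 and 43), ocu-miR2101-5p and ocu-miR480-5p. Just outside it lay ocu-miR4130-3p (9, 37 and 90 reads), ocu-miR4013-5p (61, 9 and 38), ocu-miR4249-5p (43, 11 and 9), ocu-miR2462-3p (9, 18 and 35) and ocu-miR1580-5p (27, 9 and 19). Counts of this size carry wide errors: a count of 10 reads has a 95% Poisson interval of 4.80 to 18.4 reads. It corresponds to 3.78, 4.70 and 3.93 CPM in rabbits 1, 2 and 3.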

How the data were processed

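Small RNA (3 μg of RNA per sample, 50-base reads) was sequenced by the authors from 5 Perthes and 3 control rabbits, and Perthes rabbits 1 to 3 were used here by the codes in their titles. The sample labels describe the total RNA kit, and the small RNA kit is named in the paper's methods. After adapter trimming (cutadapt), miRNAs were called by the authors with miRDeep2, and the deposited values are raw read counts per mature miRNA. How reads that match several miRNAs were counted is not given in the sources used here, so near-identical miRNAs may share reads. The authors also deposited RPM values, which equal the counts over a larger total per library, of which the listed miRNAs held 11.7%, 10.6% and 11.2%. The total RNA table was not used.

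Counts were scaled by TMM factors of edgeR 4.0.16 in R 4.3.3, computed over all 866 listed miRNAs (1.04, 0.931 and 1.03), which raised levels of rabbit 2 over rabbit 1 by 0.17 on the log2 scale relative to the library totals. CV values and intervals were computed in Python 3.11.15 with scipy 1.17.1, and the CV calculation was checked on simulated counts. Alternatives were DESeq2 1.42.0 size factors, library totals, the deposited RPM, other count minimums and leaving out each library. The members and lists were chosen with earlier results of these data known. Named members were the 10 most abundant, the 5 with the highest and the 5 with the lowest CV, the 5 highest in each rabbit against the others and 5 on each side of the threshold. Other members differing 4-fold, members of arm pairs and ocu-miR433-3p were named after their values were seen, and the 4-fold and 1.5-fold limits and the classes of abundance were also set then.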

Additional observations from a re-analysis of the deposited data

How the results depend on the processing

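The number of members was 143 at 5 reads in each library, 80 at 20 and 50 at 50, and 128 to 131 when only the remaining pair of libraries had to hold 10 reads. Their mean share of the reads was 0.289% when related to the library totals behind the deposited RPM and 1.51% without ocu-miR1105-3p, and ranged from 2.08% to 3.10% without a library. The median CV was 39.4% with DESeq2 size factors, 40.1% with library totals and 41.6% with RPM, and ranged from 30.0% to 42.2% without a library. That of the known miRNAs ranged from 18.5% to 28.6%, and without rabbit 3 the medians were 31.7% for the members and 28.6% for the known miRNAs. Over all 465 predicted miRNAs it was 98.7%, and the cause was not tested. The number of members differing 4-fold or more was 23 with DESeq2 size factors and 22 with library totals, and ranged from 4 to 16 without a library. The counts of 4-fold ranges and the CV of the known miRNAs were added after seeing the data. The number of members highest in rabbits 1, 2 and 3 was 31, 39 and 42 with DESeq2 size factors and 35, 30 and 47 with RPM. Of 31 named members, 0 changed their mean level by more than 1.5 times with DESeq2 size factors or library totals, and 15 did so when some library was left out. No paired analysis was possible because all libraries used belong to the same group. Below about 20 reads (95% Poisson interval 12.2 to 30.9) counting error limits what can be said of a member.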

Other observations

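The predicted miRNAs that did not become members had few reads, which the selection by read count largely sets. Of these 353, 274 had 0 reads in at least 1 of the 3 libraries, and their median was 11 reads summed over the libraries. A count of 0 allows a level of up to 1.13, 1.41 and 1.18 CPM (3 reads) in rabbits 1, 2 and 3. Rabbit 2 had the most predicted miRNAs at 0 reads, with 192 of 465, against 94 in rabbit 1 and 151 in rabbit 3.

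A single predicted miRNA outside the members exceeded 100 reads in a library. This was ocu-miR4112-5p, with 0 reads in rabbit 1, 1 in rabbit 2 and 282 in rabbit 3, and it was named after its values were seen. Others high in 1 or 2 libraries were ocu-miR4164-5p (28, 75 and 7 reads) and ocu-miR1666-5p (31, 4 and 60 reads).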
